A study of Mus musculus with 24 samples.

Results

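The mouse genes whose symbol is Zfp followed only by a number were taken as 1 set, by symbol and not by measured value. The choice of this set was made with earlier results of these data known. The set held 327 of the 13803 genes in the expression table (2.37%). Most of these genes encode proteins with C2H2 zinc fingers, short folds that hold a zinc ion and read a few bases of DNA each. The largest class also carries a KRAB domain, which binds the co-repressor Trim28. Trim28 in turn brings the histone methyltransferase Setdb1, heterochromatin proteins and the NuRD complex to the bound DNA, and many of the bound sites are transposable elements. KRAB zinc finger genes sit in tandem arrays that arose by duplication, and they are known to differ between mouse strains. Some members, with or without a KRAB domain, are single genes with roles in development. Examples are the imprint keepers Zfp57 and Zfp445 and the Zfp503 and Zfp703 pair of repressors.

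Total RNA was taken and sequenced from kidney stromal cells of mouse embryos, sorted by fluorescence from FoxD1Cre-eGFP kidneys, in which the promoter of the stromal progenitor gene Foxd1 drives Cre. The 24 libraries formed 8 groups of 3. On the C57BL/6 background there were wild-type and beta-catSD (deficient beta-catenin) cells, and on the CD1 background wild-type and beta-catSO (stabilised beta-catenin) cells, each at embryonic days E12.5 and E13.5. The series design names FoxD1Cre-eGFP for all genotypes, wild-type included, the sources used here do not state the alleles behind beta-catSD and beta-catSO, and C57BL/6 is an inbred strain while CD1 is an outbred stock. The series design speaks of 3 kidneys per genotype, and nothing says that libraries of a group came from separate animals. The p-values therefore reflect only library-to-library spread, part of which may be technical. Strain goes with the mutant line, so beta-catSD and beta-catSO cells differ in both.

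Libraries held 6.18 to 21.2 M reads (M for mega), and values are log2 CPM, the log2 of counts per M reads. Differences are log2 differences of group means ± standard error from limma's moderated fit over all 13803 genes, and genes with a Benjamini-Hochberg adjusted p under 0.05 are termed called. Ctnnb1, which encodes beta-catenin, was at 10.34 to 10.66 in the beta-catSD libraries, 10.51 to 10.86 in their wild-types, 10.41 to 10.68 in beta-catSO and 10.47 to 10.77 in CD1 wild-type, and a value for the whole gene does not show a changed exon. The Wnt feedback gene Axin2 lay between 3.30 and 4.004 in beta-catSD, between 4.42 and 5.00 in all 12 wild-type libraries and between 7.85 and 8.78 in beta-catSO. The summed CPM of 9 stromal markers was 7883 to 13152, and RNA of other cells was present too. All 9 macrophage markers and 7 of 8 endothelial markers were called lower in beta-catSD than in its wild-type, and 3 of 6 erythroid markers were called lower in each mutant, with 5 of 6 below 0 in beta-catSD and 6 of 6 in beta-catSO. Between the wild-types 6 of 9 macrophage markers were called lower in C57BL/6, and all 9 were below 0. The summed CPM of the macrophage list was 13.3 to 161 in beta-catSD, 102 to 615 in its wild-type, 292 to 704 in CD1 wild-type and 414 to 992 in beta-catSO. That of the endothelial list was 26.6 to 68.4, 37.9 to 160, 22.9 to 718 and 69.6 to 335 in the same order, and that of the erythroid list 9.09 to 61.4, 41.3 to 1179, 40.4 to 4045 and 59.0 to 974. C57BL/6 wild-type E12.5 replicate 3 and CD1 wild-type E13.5 replicate 3 had the highest levels of the liver gene Alb (10.44 and 8.18). Liver RNA was not limited to this pair. The summed CPM of 5 hepatocyte markers was 184 to 197 in CD1 wild-type at E12.5, against 0.391 to 0.677 in beta-catSO at E12.5. In bulk RNA, fewer cells of a type and less RNA per cell cannot be told apart. Xist, the transcript of the inactive X chromosome, was 8.8, 10.1 and -1.5 in beta-catSD at E12.5. It was 6.5, 9.0 and 4.0 in C57BL/6 wild-type at E13.5. Libraries of these groups thus differed in their mix of sexes and were not all repeats of the same RNA. The part of sex in the calls was not tested.

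All 327 genes were placed on GRCm38. Of the 324 with a coding sequence in GENCODE M21, 195 held a KRAB-like stretch by a sequence score and 129 did not. The median number of C2H2 fingers was 12 in KRAB-like members and 8 in the others. The table held 324 of the 365 protein-coding genes with such names in the annotation. There were 14 runs of neighbours on a chromosome (5 or more members with gaps under 500 kb), which held 141 members, 111 of them KRAB-like. Chromosome 7 carried the most members (86), then chromosome 17 (41) and chromosome 13 (29). A stretch of at least 200 nucleotides with at least 95% identity to another gene's transcript was found for 26.7% of KRAB-like members and 9.30% of the others, and for these genes the division of reads between copies is uncertain.

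The 250 bases before the RefSeq start site are shown for 1 member that differed between the strains (Zfp979). They are also shown for 3 members that changed oppositely in the mutants (Zfp503, Zfp536, Zfp467). Zfp827 and Zfp141 are added as the members called in a mutant in the mean of the stages that hold the TCF/LEF core searched here. The sequences are from RefSeq on GRCm38.p6, on the strand of the gene, and capitals mark CTTTGAT or its reverse complement ATCAAAG, letters that factors partnering with beta-catenin can bind.
Zfp979: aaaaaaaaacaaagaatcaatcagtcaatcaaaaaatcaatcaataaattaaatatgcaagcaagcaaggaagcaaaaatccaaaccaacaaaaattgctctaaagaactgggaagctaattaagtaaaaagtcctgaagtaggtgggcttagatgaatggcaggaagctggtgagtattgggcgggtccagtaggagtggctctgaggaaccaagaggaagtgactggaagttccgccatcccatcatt
Zfp503: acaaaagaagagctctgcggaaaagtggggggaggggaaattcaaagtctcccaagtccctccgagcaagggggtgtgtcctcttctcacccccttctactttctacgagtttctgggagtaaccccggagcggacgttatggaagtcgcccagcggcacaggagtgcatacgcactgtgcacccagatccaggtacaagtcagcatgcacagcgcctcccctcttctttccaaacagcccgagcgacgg
Zfp536: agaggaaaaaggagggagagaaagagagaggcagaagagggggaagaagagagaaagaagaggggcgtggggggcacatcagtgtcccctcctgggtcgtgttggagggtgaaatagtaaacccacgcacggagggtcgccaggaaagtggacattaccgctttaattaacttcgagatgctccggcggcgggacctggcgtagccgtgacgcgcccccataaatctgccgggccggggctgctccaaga
Zfp467: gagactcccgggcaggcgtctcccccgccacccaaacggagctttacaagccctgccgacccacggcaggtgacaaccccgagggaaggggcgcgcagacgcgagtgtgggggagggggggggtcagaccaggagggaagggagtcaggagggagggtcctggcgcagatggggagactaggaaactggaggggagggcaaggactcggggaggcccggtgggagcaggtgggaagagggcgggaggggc
Zfp827: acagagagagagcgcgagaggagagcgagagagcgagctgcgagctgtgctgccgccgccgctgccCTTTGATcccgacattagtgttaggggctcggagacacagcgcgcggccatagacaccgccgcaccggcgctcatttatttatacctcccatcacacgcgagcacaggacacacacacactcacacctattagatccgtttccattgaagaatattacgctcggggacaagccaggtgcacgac
Zfp141: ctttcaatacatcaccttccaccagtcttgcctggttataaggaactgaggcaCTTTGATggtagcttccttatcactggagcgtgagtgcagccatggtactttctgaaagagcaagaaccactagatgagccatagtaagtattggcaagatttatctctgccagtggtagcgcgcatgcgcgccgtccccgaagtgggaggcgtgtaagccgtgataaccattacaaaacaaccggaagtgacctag
The windows are Zfp979 at chr4:147642509-147642758, Zfp503 at chr14:21989602-21989851, Zfp536 at chr7:37769753-37770002, Zfp467 at chr6:48445091-48445340, Zfp827 at chr8:79028187-79028436 and Zfp141 at chr7:42505754-42506003. For Zfp979, Zfp536 and Zfp467 the RefSeq start lies inside the GENCODE span given for the gene below. Their windows overlap that span, that of Zfp979 only at its last bases, and do not wholly precede its outermost start. The 7 letters, read on both strands, occurred in 3.72% of the 27025 genes with such a window and in 16 of the 271 members with one (5.90%). By calls in the mean of the stages, they were found in 0 of the 6 windows of members higher in beta-catSO. They were found in 1 of the 15 of members lower in beta-catSO and in 1 of the 5 of members called in beta-catSD. A match is a description of these windows and is not a measured binding site.

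Members were expressed at a wide range of levels. The median over members was 4.27 log2 CPM, against 4.79 over all genes, with 3.52 for KRAB-like members and 5.37 for members without that domain. Per kilobase of exon, where genes can be compared, the median log2 CPM was 1.55 for KRAB-like members and 2.80 for the others. The highest levels per kilobase were those of Zfp703 (6.43), Zfp362 (5.91), Zfp146 (5.75), Zfp422 (5.45) and Zfp207 (5.38), which encodes a spindle assembly factor that binds Bub3. Of these 5, 0 held a KRAB-like stretch. The lowest were Zfp534 (-4.58), Zfp366 (-4.26), Zfp365 (-2.84), Zfp433 (-2.41) and Zfp964 (-1.87).

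The C57BL/6 and CD1 wild-type cells differed in few members. Averaged over the stages, 4 members were higher in C57BL/6 and 1 was lower, or 1.53% of the set, where 4.46% of all genes were called (2.62% higher and 1.85% lower). Within a stage, the libraries of the strains did not overlap for 40 members at E12.5 (20.1% of all genes) and for 40 at E13.5 (16.4%). The median strain difference was -0.00 over members and -0.00 over all genes. At E12.5 alone 1 member was called (0.543% of all genes were) and at E13.5 limma called 0 members (0.420% of all genes). At E13.5, 29 members had an unadjusted p under 0.05 (8.87%, against 12.2% of all genes). The test of whether the strain difference itself differed between the stages called 0 members (0.0145% of all genes). In it 11 members had an unadjusted p under 0.05 (3.36%, against 5.16% of all genes). By family, 2 KRAB-like members were higher and 1 lower, and 2 members without the domain were higher. The E12.5 count was 0 without CD1 wild-type replicate 2 and 3 without C57BL/6 wild-type replicate 3, and the E13.5 count was 1 without CD1 wild-type replicate 3. In the mean of the stages the count was 3 without C57BL/6 wild-type E13.5 replicate 3, all 3 of them among the 5, and 0 when the mean levels of macrophage, endothelial and erythroid markers entered the fit.

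**Figure D1:**
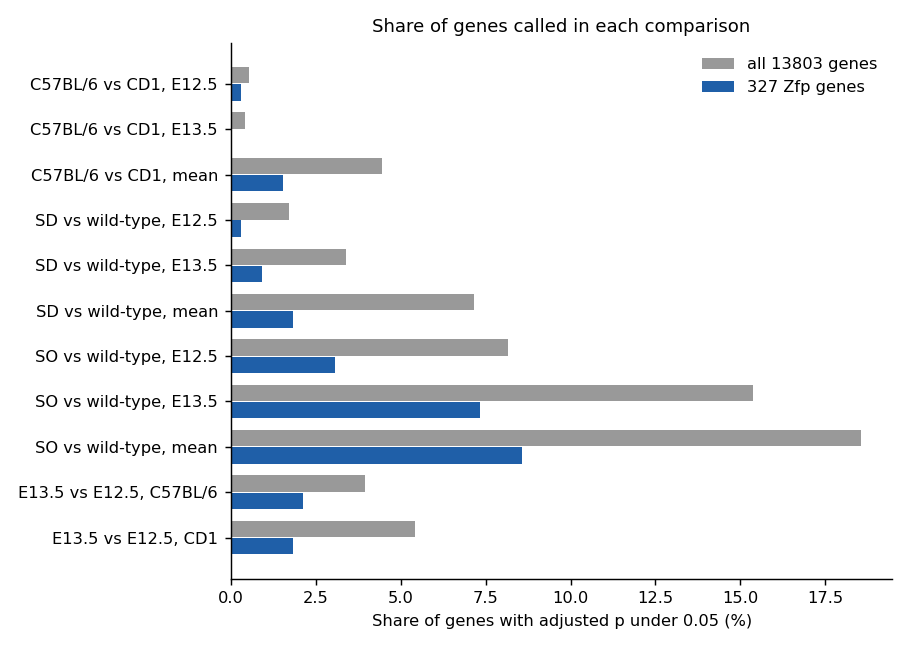
Share of genes (%, x axis) with an adjusted p under 0.05 in each of 11 comparisons (y axis), for all 13803 genes in grey and for the 327 Zfp genes in blue. The blue bar is shorter than the grey one in every comparison, from 0 against 0.420% (strain at E13.5) to 8.56% against 18.5% (beta-catSO, mean of stages).

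Zfp979, a KRAB-like gene with 3 fingers (chromosome 4, 147611937 to 147642513), had the strongest strain difference and was the only called member whose wild-type libraries did not overlap between the strains; Zfp182 did not overlap either and was not called (adjusted p = 0.221), and 1.29% of all genes were apart in this way. Its log2 CPM was 1.80, 2.04 and 1.26 in C57BL/6 wild-type at E12.5 and 1.24, 1.36 and 1.68 at E13.5. In CD1 wild-type it was -4.26, -4.34 and -0.82 at E12.5 and -2.74, -2.17 and 0.70 at E13.5. Every C57BL/6 library was above every CD1 wild-type library, and the CD1 libraries were far apart from each other. The difference was 3.84 ± 0.58 (adjusted p = 0.000573). Since 2 CD1 libraries held 0 reads of this gene, this fitted value depends on the 0.5 added to each count, and the reads give a plainer size. C57BL/6 wild-type held 179 reads and CD1 wild-type 20, a 9.16-fold difference at equal depth with an exact 95% counting interval of 5.75 to 15.4. At E12.5 it was 19.3-fold (113 against 5 reads, interval 8.03 to 60.6) and at E13.5 5.55-fold (66 against 15 reads, 3.13 to 10.5). CD1 wild-type E13.5 replicate 3, 1 of the pair of libraries highest in Alb, held 12 of the 20 CD1 reads, and without it the difference was 4.36 (adjusted p = 4.53e-05). With the 3 marker means in the fit it was 2.96 and not called (adjusted p = 0.151), and the part of those cells in the difference was not tested. Its transcript has stretches near-identical to Zfp600 and Zfp978. Reads of both strains were counted on mm10, a C57BL/6 sequence, and the part of CD1 sequence differences in these read counts was not tested.

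The mutant libraries, which the strain comparison did not use, gave the same order. Zfp979 was 2.07, 1.24 and 1.65 in beta-catSD at E12.5 and 2.16, 1.98 and 1.56 at E13.5, so that all 12 C57BL/6 libraries lay between 1.24 and 2.16. In beta-catSO it was -0.17, 0.02 and -0.92 at E12.5 and -0.22, -0.28 and 1.61 at E13.5. Only the last of these reached the C57BL/6 range. The beta-catSD libraries were higher than the beta-catSO libraries by 1.77 ± 0.58 (adjusted p = 0.0216), with 186 against 79 reads. Genotype and strain cannot be told apart in that comparison. Within CD1, beta-catSO libraries were higher than wild-type by 2.28 ± 0.58 (adjusted p = 0.00682), 79 against 20 reads or 3.67-fold (2.22 to 6.33). The beta-catSO and CD1 wild-type libraries overlapped at each stage. That interval covers counting error only and leaves out the spread between libraries of a group.

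The remaining 4 strain calls were small, and these genes are named after their values were seen. Zfp157, a KRAB-like gene with 11 fingers, was 5.07 to 5.49 in the 6 C57BL/6 wild-type libraries and 4.68 to 5.22 in the 6 CD1 libraries, a difference of 0.38 ± 0.07 (adjusted p = 0.00423). The groups overlapped across the stages and were apart at E13.5, with a lowest C57BL/6 value of 5.07 and a highest CD1 value of 4.70. Zfp131, a BTB-domain protein, was higher by 0.34 ± 0.07 (adjusted p = 0.0112). Zfp706, a small protein with 1 finger, was higher by 0.20 ± 0.05 (0.0332), and it has near-identical stretches in 9 other genes. Zfp715, KRAB-like with 19 fingers, was lower by 0.32 ± 0.09 (0.0359). Between the beta-catSD and beta-catSO libraries Zfp157 (0.53 ± 0.07, adjusted p = 4.19e-06) and Zfp715 (-0.29 ± 0.09, adjusted p = 0.0103) were called in the direction of their strain difference, and Zfp131 (-0.16) and Zfp706 (0.13) were not called. Of the 11 developmental Zfp genes listed and measured, 0 were called between the strains. Their values lay between -0.12 ± 0.20 for Zfp36, which encodes the RNA decay factor tristetraprolin, and 0.15 ± 0.11 for Zfp703.

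**Figure D2:**
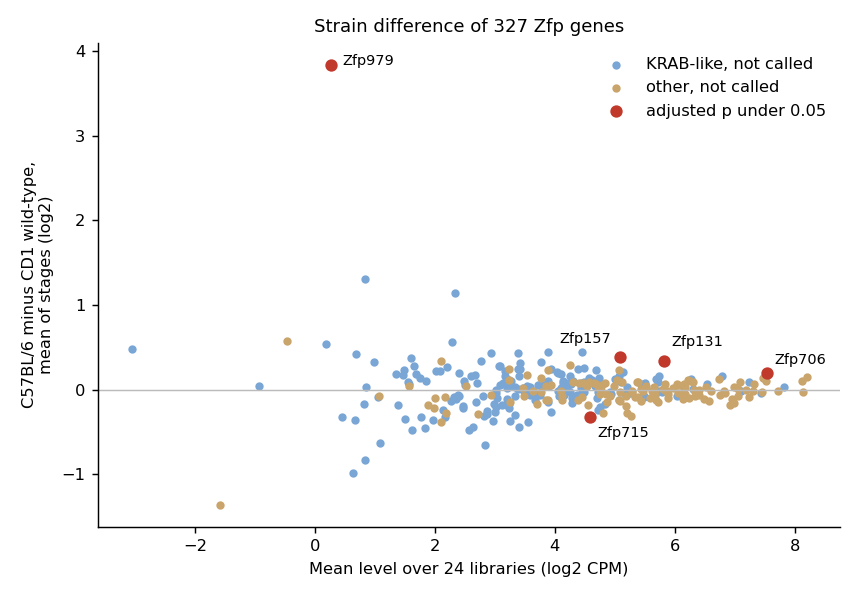
Difference between C57BL/6 and CD1 wild-type libraries (log2, mean of the stages, y axis) against mean level over 24 libraries (log2 CPM, x axis) for 327 Zfp genes. KRAB-like genes are blue, others brown, and the 5 called genes red; Zfp979 stands at 3.84, and the other called genes lie between -0.32 and 0.38.

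Zfp979 lies in a run of 5 KRAB-like members on chromosome 4 (147492417 to 147848366), and the run was picked out after its values were seen. Its members in order are Zfp982, Zfp979, Zfp534, Zfp984 and Zfp933, and 4 of them were called in at least 1 of the 16 comparisons computed. Of all genes 44.5% were, of all members 79 of 327, and of those on chromosome 4 10 of 16. Zfp984 was 1.26 to 3.87 in C57BL/6 wild-type, 3.03 to 4.20 in beta-catSD, 0.49 to 3.82 in CD1 wild-type and 0.18 to 2.38 in beta-catSO. The 6 beta-catSD libraries were above the 6 beta-catSO libraries, by 2.41 ± 0.49 (adjusted p = 0.000513), while the wild-type strains overlapped (1.15 ± 0.49, adjusted p = 0.199). The highest CD1 wild-type value was again that of E13.5 replicate 3. Zfp984 has near-identical stretches in 4 genes, among them Zfp985. Zfp933 was 3.39 to 3.55 in all 6 CD1 wild-type libraries and 3.49 to 4.53 in C57BL/6 (strain difference 0.45 ± 0.14, adjusted p = 0.0773), and it rose in beta-catSO by 0.44 ± 0.14 (adjusted p = 0.0363). Zfp982 fell in beta-catSO at E13.5 by 2.25 ± 0.75 (adjusted p = 0.0441), with libraries that overlapped between the groups. The reads were 25 against 34 in wild-type, and the wild-type level was 2.01 times as high (1.17 to 3.52). This interval covers counting error only and not the spread between libraries. Zfp534 was barely detected.

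**Figure D3:**
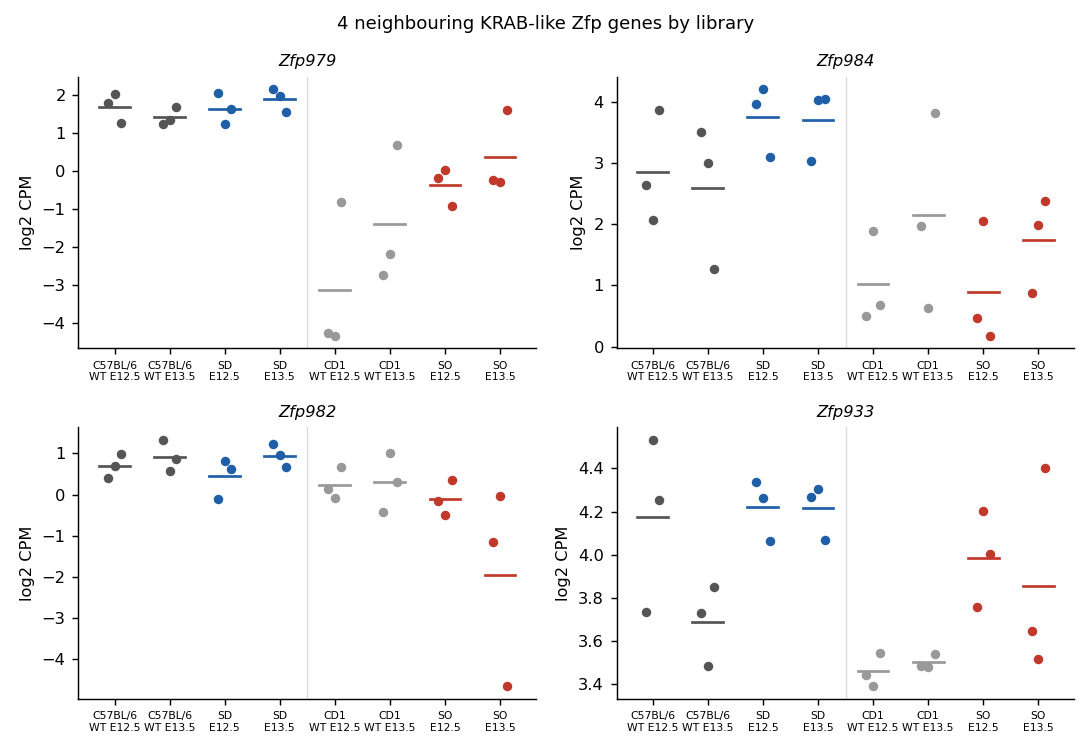
Log2 CPM (y axis) of 4 neighbouring KRAB-like genes in each library, by group (x axis, with the embryonic day); points are libraries, bars group means, and the vertical line divides C57BL/6 from CD1. Zfp979 stays between 1.24 and 2.16 in all C57BL/6 libraries and ranges from -4.34 to 1.61 in CD1, and Zfp984 is at 3.03 or above in every beta-catSD library.

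Over all members, the beta-catSD and beta-catSO libraries differed more than the wild-type strains did. There were 40 members higher in beta-catSD and 17 lower, or 17.4% of the set, where 33.9% of all genes were called (16.1% higher and 17.8% lower). Of the 195 KRAB-like members 27 were higher and 6 lower, and of the 129 others 12 were higher and 11 lower. The median difference was 0.06 over members, 0.10 over KRAB-like members and 0.01 over all genes. The genes called include those whose genotype effects differ, so this comparison mixes strain and genotype. All 9 macrophage, 7 of 8 endothelial and 4 of 6 erythroid markers were called lower in beta-catSD in it. With the means of these 3 lists in the fit 10 members were called, 3 higher and 7 lower, and 7 of the 10 were among the 57.

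Few members changed in beta-catSD. In the mean of the stages 4 rose and 2 fell in beta-catSD, 1.83% of the set, where 7.17% of all genes were called (3.46% higher and 3.71% lower). At E12.5 limma called 1 member (1.72% of all genes) and at E13.5 3 (3.40%), and for 0 members did the effect differ between the stages (0% of all genes), with 14 members and 753 of all genes at an unadjusted p under 0.05. Zfp827, a protein that binds telomeres with the NuRD complex (chromosome 8, 79028437 to 79193766), rose by 0.35 ± 0.06 (adjusted p = 0.00122). Its log2 CPM was 6.31, 6.36 and 6.18 in wild-type and 6.70, 6.48 and 6.73 in beta-catSD at E12.5, and 6.31, 6.23 and 6.03 against 6.46, 6.58 and 6.53 at E13.5. The 6 mutant libraries lay above the 6 wild-type libraries, and it was called at each stage (adjusted p = 0.0448 and 0.0408). Zfp943, KRAB-like and on chromosome 17, rose by 0.41 ± 0.12 (adjusted p = 0.0401), and Zfp945 of the same array rose at E13.5 by 0.49 ± 0.13 (0.0307). The call of Zfp943 was lost on leaving out any of 9 of 12 libraries (adjusted p up to 0.117), and that of Zfp945 without beta-catSD replicate 1 or 2 or C57BL/6 wild-type replicate 3 of that stage (up to 0.217). Each stage call of Zfp827 was lost on leaving out any of 5 of that stage's 6 libraries (up to 0.228 at E12.5 and 0.240 at E13.5), and its call in the mean did not. The E12.5 count was 0 without any library of that stage but beta-catSD replicate 2. The E13.5 count was 0 without beta-catSD replicate 1 or 2 and 1 without wild-type replicate 2 or 3. In the mean of the stages, fits leaving out 1 library gave 3 calls without C57BL/6 wild-type E13.5 replicate 2 and 4 to 7 without any other library. With the macrophage, endothelial and erythroid means in the fit there were 2 calls, of which 0 were among the 6, and Zfp827 stood at 0.33 (adjusted p = 0.129), Zfp503 at -0.20 (0.388) and Zfp395 at 0.24 (0.310). These markers moved with the genotype as given above, and their part in the calls was not tested beyond that fit.

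More members changed in beta-catSO, and more of them fell than rose. In the mean of the stages 10 rose and 18 fell in beta-catSO, 8.56% of the set, where 18.5% of all genes were called (10.2% higher and 8.32% lower). At E12.5 it was 5 each way (8.16% of all genes called, 5.17% higher and 3.00% lower) and at E13.5 8 higher and 16 lower (15.4%, 8.53% and 6.83%), with 6 members called at both stages. The effect differed between the stages for 2 members, Zfp51 and Zfp934 (1.33% of all genes). Among KRAB-like members 3 rose and 11 fell at E13.5, and among the others 5 rose and 5 fell. The median difference at E13.5 was -0.07 over members and -0.01 over all genes. Of the 9 stromal markers 6 fell with the genotype, Foxd1 among them (by 1.02 in the mean of the stages), 2 rose and 1 was not called, and 3 of 5 hepatocyte markers were lower in beta-catSO (summed CPM 0.367 to 3.09, against 0.631 to 822 in wild-type). With the 3 marker means in the fit, 13 members were called, 11 of them among the 28. The E13.5 count was 13 in that fit (8 higher, 5 lower) and 8 with only the groups compared (4 each way). It was 15 without CD1 wild-type E13.5 replicate 3, and 13 of these were among the 24. The E12.5 count was 3 without beta-catSO replicate 2, 4 without beta-catSO replicate 3 or CD1 wild-type replicate 3, and 5 without CD1 wild-type replicate 1.

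The largest rise among called members after that of Zfp979 was that of Zfp536, a repressor known to restrain retinoic acid-driven neuronal differentiation (chromosome 7, 37472135 to 37773641). Its log2 CPM was 2.66, 2.55 and 2.59 in CD1 wild-type and 3.24, 3.71 and 3.54 in beta-catSO at E12.5. At E13.5 it was 1.98, 1.67 and 0.92 in wild-type and 4.64, 3.95 and 4.12 in beta-catSO. All 6 beta-catSO libraries were above all 6 wild-type libraries, by 1.81 ± 0.25 (adjusted p = 7.88e-06). In beta-catSD it was 1.31, 1.38 and 1.08 against 1.99, 2.18 and 2.25 in wild-type at E12.5, and 0.48, 0.29 and 0.22 against 1.56, 1.92 and 0.15 at E13.5. Those groups were apart at E12.5 and overlapped at E13.5, where 1 wild-type library (0.15) was below every beta-catSD library. The mean fell by 0.88 ± 0.25 (adjusted p = 0.0299).

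Zfp503, also called Nolz1, is a repressor of the family that includes Zfp703, and its protein held 0 C2H2 fingers of the pattern searched (chromosome 14, 21983959 to 21989601). It was 6.98, 7.24 and 7.13 in CD1 wild-type and 7.92, 7.97 and 7.90 in beta-catSO at E12.5, and 7.50, 7.21 and 7.10 against 7.76, 7.96 and 7.98 at E13.5. The rise of 0.72 ± 0.07 (adjusted p = 1.13e-07) left the groups apart. In beta-catSD it was 6.65, 6.41 and 6.73 against 6.97, 6.97 and 6.94 in wild-type at E12.5 and 6.67, 6.82 and 7.02 against 7.14, 7.33 and 7.32 at E13.5. It was lower within each stage, and the mean fell by 0.40 ± 0.07 (adjusted p = 0.00112). Zfp703, the member with the highest level per kilobase, fell in beta-catSO by 0.63 ± 0.11 (adjusted p = 0.000206), from 8.71, 8.56 and 8.59 to 8.20, 8.08 and 7.93 at E12.5 and from 7.68, 8.34 and 7.98 to 7.57, 7.24 and 7.07 at E13.5. It was -0.12 ± 0.11 in beta-catSD (adjusted p = 0.598). With the 3 marker means in the fit Zfp703 was at -0.35 and not called (adjusted p = 0.173), and the rise of Zfp503 was (0.69, adjusted p = 5.26e-05).

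Zfp395, which binds a regulatory region of the huntingtin gene (chromosome 14, 65358389 to 65398930), moved the other way from Zfp503 and Zfp536. It was 6.83, 6.90 and 6.76 in C57BL/6 wild-type and 7.03, 7.14 and 7.18 in beta-catSD at E12.5, and 6.94, 6.80 and 6.89 against 7.21, 7.14 and 7.21 at E13.5. In CD1 wild-type it was 6.70, 6.78 and 6.92 and in beta-catSO 6.34, 6.50 and 6.52 at E12.5, and 6.80, 7.001 and 7.04 against 6.50, 6.21 and 6.14 at E13.5. All mutant libraries lay beyond their wild-types, higher in beta-catSD by 0.30 ± 0.06 (adjusted p = 0.00437) and lower in beta-catSO by 0.50 ± 0.06 (2.47e-06). Zfp467, which favours fat over bone formation in marrow stromal cells (chromosome 6, 48427697 to 48445825), rose in beta-catSD by 0.28 ± 0.08 (adjusted p = 0.0248) and fell in beta-catSO by 0.28 ± 0.08 (0.00990). It was 5.59, 5.55 and 5.66 in C57BL/6 wild-type and 5.93, 6.10 and 5.94 in beta-catSD at E12.5, and 5.70, 5.57 and 5.92 against 5.95, 5.91 and 5.81 at E13.5. In CD1 wild-type it was 5.81, 5.39 and 5.64 and in beta-catSO 5.48, 5.35 and 5.40 at E12.5, and 5.76, 5.63 and 5.57 against 5.17, 5.27 and 5.47 at E13.5. The groups overlapped at E13.5 in the first pair and at E12.5 in the second.

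**Figure D4:**
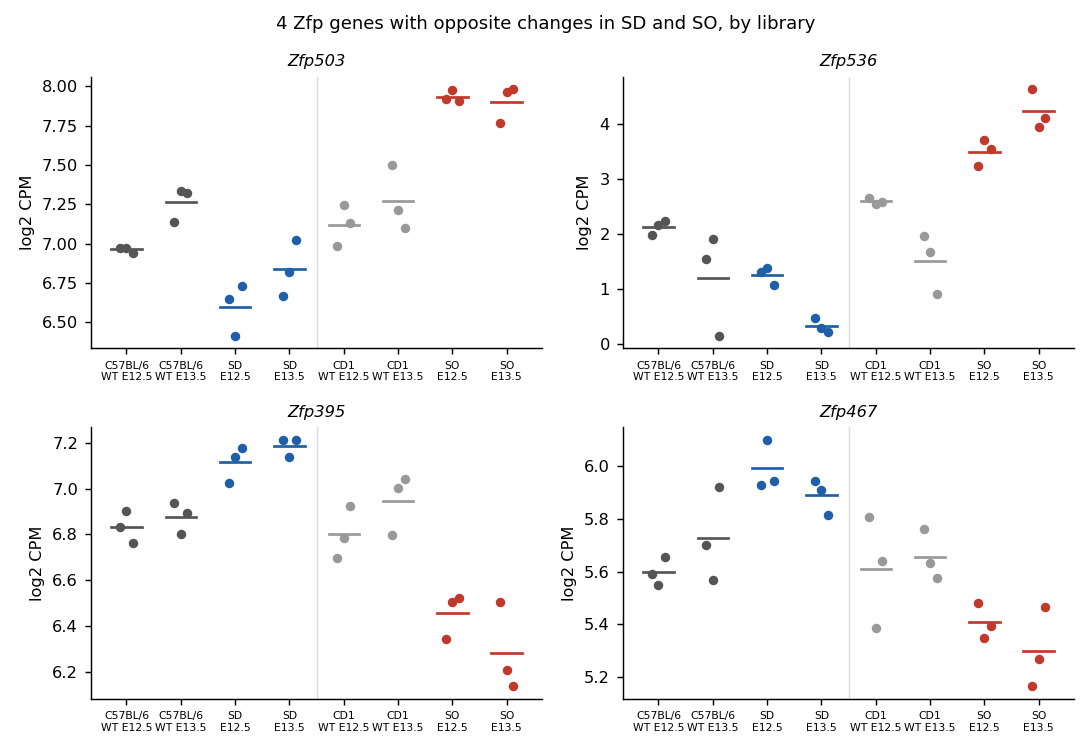
Log2 CPM (y axis) of Zfp503, Zfp536, Zfp395 and Zfp467 in each library, by group (x axis, with the embryonic day; SD and SO are beta-catSD and beta-catSO); points are libraries and bars group means. By group means, Zfp503 and Zfp536 are lower in beta-catSD and higher in beta-catSO than in wild-type cells of the same strain. Zfp395 and Zfp467 show the reverse, and mean changes lie between -0.88 and 1.81. Libraries overlap for Zfp536 in beta-catSD at E13.5, and for Zfp467 in beta-catSD at E13.5 and in beta-catSO at E12.5.

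These 4 genes were the only members called in the mean of the stages in both mutants, and all 4 changed in opposite directions. Of the 423 genes of the whole table called in both, 300 did so. The mutants share no control libraries. A test of the difference between the genotype effects called 23 members, 7 higher in beta-catSO and 16 lower (7.03%, where 17.9% of all genes were called, 9.87% higher and 8.05% lower). The difference was 1.12 ± 0.10 for Zfp503 (adjusted p = 3.90e-08), -0.80 ± 0.09 for Zfp395 (6.71e-07), 2.69 ± 0.35 for Zfp536 (5.31e-06) and -0.56 ± 0.11 for Zfp467 (0.000604). For these 4 genes the difference is formed from the same estimates that gave their opposite calls. Its small p-values are therefore no separate evidence. With the marker means in the fit 12 members were called, 8 of them among the 23, and Zfp467 was at -0.40 and not called (adjusted p = 0.173). Zfp462, which keeps heterochromatin in place at lineage genes, differed by 0.80 ± 0.13 (5.76e-05). Strain is part of this difference of effects and cannot be told apart from genotype.

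**Figure D5:**
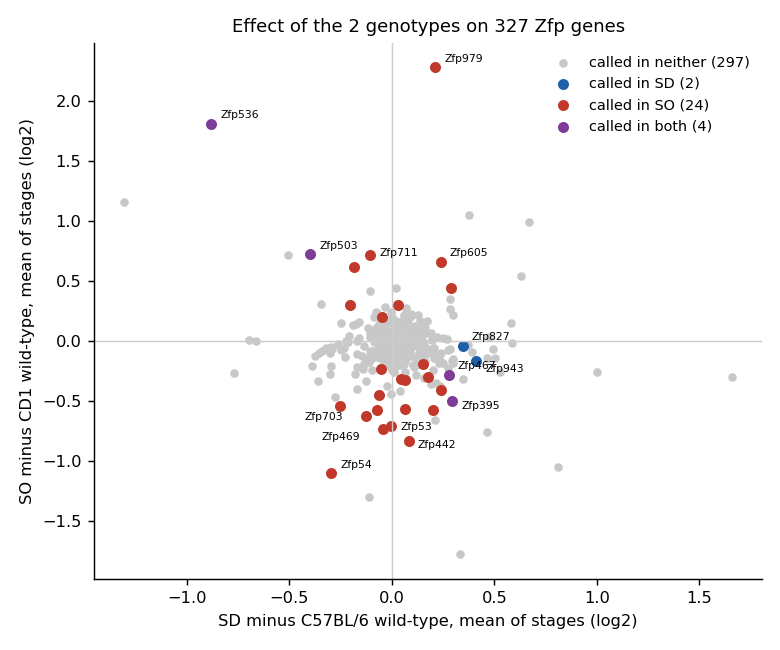
Change in beta-catSO against CD1 wild-type (log2, mean of the stages, y axis) and in beta-catSD against C57BL/6 wild-type (x axis) for 327 Zfp genes, coloured by where they were called. The 4 genes called in both (purple) lie in the upper left (Zfp536, Zfp503) and lower right (Zfp395, Zfp467), and 297 genes were called in neither.

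Further members rose in beta-catSO without a call in beta-catSD. Zfp462 (34 fingers, chromosome 4, 54945048 to 55083563) was 7.18, 7.07 and 6.998 in wild-type and 7.84, 7.98 and 7.86 in beta-catSO at E12.5, and 6.63, 6.82 and 6.68 against 7.15, 7.08 and 7.16 at E13.5. The groups were apart within each stage, and the rise was 0.62 ± 0.09 (adjusted p = 1.59e-05). Zfp711, an X-linked gene whose protein works with the histone demethylase Phf8 (chromosome X, 112600526 to 112635070), was 3.63 to 4.51 in wild-type and 4.72 to 5.12 in beta-catSO, a rise of 0.72 ± 0.12 (adjusted p = 8.89e-05) with groups that did not overlap. Xist, the transcript of the inactive X chromosome, was 8.36 to 10.27 in the same wild-type libraries and 8.72 to 10.23 in beta-catSO. The Y-linked gene Uty was 2.4, 2.7 and 2.0 in wild-type and 3.3, 3.3 and 4.2 in beta-catSO at E12.5. At E13.5 it was 3.6, 2.2 and 4.1 in wild-type and -0.1, 1.8 and 3.3 in beta-catSO. The mix of sexes thus may differ between these CD1 libraries too, and its part in the rise of Zfp711 was not tested. The KRAB-like gene Zfp605 rose by 0.66 ± 0.14 (adjusted p = 0.00126), from 2.73 to 3.11 in wild-type to 3.34 to 3.89 in beta-catSO. Zfp131 rose by 0.30 ± 0.07 (0.00522) and Zfp362 by 0.20 ± 0.05 (0.0103). Zfp28 rose at E13.5 by 0.92 ± 0.29 (0.0310), a call that ended without beta-catSO replicate 1 or 2 or CD1 wild-type replicate 1 or 3 of that stage (adjusted p up to 0.163). With the marker means in the fit Zfp605 was at 0.57 and not called (adjusted p = 0.115).

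Of the 18 members that fell in beta-catSO 9 were KRAB-like, 4.62% of the KRAB-like members, and 8 were among the members without the domain, 6.20% of those. Zfp442 and Zfp937, in a run of 3 members on chromosome 2, which share a near-identical stretch, fell by 0.83 ± 0.19 (adjusted p = 0.00250) and 0.57 ± 0.11 (0.000473). Zfp937 was 4.11 to 4.58 in wild-type and 3.55 to 3.95 in beta-catSO, with no overlap. Zfp141, with the motif shown above, fell by 0.45 ± 0.09 (0.000724), from 4.34 to 4.59 in wild-type to 3.87 to 4.14 in beta-catSO. Zfp976 fell by 0.57 ± 0.16 (0.0152) and Zfp867 by 0.55 ± 0.15 (0.0142). Zfp469, whose human counterpart is mutated in brittle cornea syndrome, fell at E12.5 by 1.35 ± 0.32 (0.00792), from 4.46, 4.67 and 4.22 to 3.00, 2.77 and 3.53. At E13.5 its libraries overlapped, at 4.53, 5.42 and 4.51 in wild-type and 4.76, 4.31 and 5.04 in beta-catSO. Zfp960 is a low gene that fell at E13.5 (3.08 ± 0.93, adjusted p = 0.0267), and its reads were 73 in wild-type and 40 in beta-catSO, a 2.70-fold difference at equal depth (1.81 to 4.08). Its call was lost on leaving out any of 5 of that stage's 6 libraries (adjusted p up to 0.201), and that of Zfp469 without beta-catSO E12.5 replicate 2 (0.0527). With the marker means in the fit, Zfp141 (-0.46, adjusted p = 0.0546), Zfp867 (-0.72, 0.0802) and Zfp976 (-0.55, 0.229) were not called.

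The longest array, 23 KRAB-like members on chromosome 17 (21008903 to 23599487), held 11 members called in at least 1 comparison, where 44.5% of all genes were. A block at its start was picked out after its values were seen. Of the neighbouring Zfp54, Zfp51, Zfp53, Zfp52 and Zfp948 (21423227 to 21588699), 4 fell in beta-catSO at E13.5. In that comparison 6.83% of all genes and 4.89% of members were called lower. The falls were 1.38 ± 0.46 for Zfp54 (adjusted p = 0.0447), 0.76 ± 0.18 for Zfp51 (0.00473), 1.02 ± 0.23 for Zfp53 (0.00352) and 0.46 ± 0.13 for Zfp948 (0.0161), and Zfp52 was at 0.01 ± 0.35. Zfp53 was 3.23, 3.34 and 3.85 in wild-type and 2.13, 2.57 and 2.66 in beta-catSO, and Zfp948 was 4.56, 4.76 and 4.80 against 4.23, 4.21 and 4.29. In neither gene did the groups overlap. In beta-catSD 0 of these 5 genes were called in the mean of the stages (7.17% of all genes), at E12.5 (1.72%) or at E13.5 (3.40%). The call of Zfp54 was lost on leaving out any of 5 of that stage's 6 libraries (adjusted p up to 0.162, the exception being beta-catSO replicate 3). With the marker means in the fit Zfp54 was at -0.49 and not called (0.721), and Zfp948 in the mean of the stages was at -0.20 and not called (0.442).

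Between E12.5 and E13.5 every called member fell. In C57BL/6 wild-type 7 fell and 0 rose, 2.14% of the set, where 3.96% of all genes were called (2.08% higher and 1.88% lower). In CD1 wild-type 6 fell and 0 rose, 1.83%, where 5.42% of all genes were called (2.42% higher and 3.00% lower). The median change was -0.14 in C57BL/6 and -0.07 in CD1 over members, and 0.00 in each strain over all genes. In the other zinc finger families given below, the median change was below 0 in each strain too. In C57BL/6, 244 of 327 members had a lower mean at E13.5, against 6869 of 13803 genes. In CD1 it was 201 of 327 members, against 6805 of 13803 genes. Members whose libraries did not overlap between the stages were lower in 64 cases and higher in 8 in C57BL/6 (22.0% of members, 24.5% of all genes) and lower in 40 and higher in 10 in CD1 (15.3% and 24.9%). Zfp521, a partner and regulator of Ebf factors in mesenchymal and blood progenitors, fell in each strain. It was 7.49, 7.41 and 7.15 and then 6.84, 6.85 and 6.74 in C57BL/6, a fall of 0.54 ± 0.11 (adjusted p = 0.00876). In CD1 it was 7.45, 7.42 and 7.55 and then 6.59, 7.07 and 6.82, a fall of 0.65 ± 0.11 (0.00114). The stages did not overlap in either strain, and the C57BL/6 call ended without E12.5 replicate 1 or 2 or E13.5 replicate 3 (adjusted p up to 0.0565). Zfp46 also fell in each, by 0.33 ± 0.09 (0.0388) and 0.34 ± 0.09 (0.0252). In CD1 the related gene Zfp423 fell by 0.52 ± 0.11 (0.00529), Zfp703 by 0.62 ± 0.16 (0.0220) and Zfp558 by 0.62 ± 0.15 (0.0171). In C57BL/6 Zfp423 was at -0.35 ± 0.11 (0.0626) and Zfp703 at -0.53 ± 0.16 (0.0605), and Zfp811 fell by 0.98 ± 0.24 (0.0265) and Zfp653 by 0.71 ± 0.18 (0.0287). The C57BL/6 count was 1 with the marker means in the fit and 4 with only the groups compared, where the CD1 count was 2. From E12.5 to E13.5 the 6 erythroid markers were below 0 and the 5 nephron progenitor markers above 0 in each strain, with 1 call among them (a nephron progenitor marker in CD1). The fit with marker means holds no nephron progenitor term, and the part of these markers in the falls was not tested. The C57BL/6 count was 0 without E12.5 replicate 1, 1 without E12.5 replicate 2 or E13.5 replicate 3, 2 without E13.5 replicate 2 and 12 without E12.5 replicate 3. Of the 4 other calls checked in this way (Zfp811, Zfp653, Zfp558 and Zfp703), 4 ended without at least 3 of the 6 libraries of the strain (adjusted p up to 0.135). The CD1 count was 2 without E12.5 replicate 1 and 3 without E13.5 replicate 3.

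Of 20 listed genes that serve KRAB proteins as co-repressors, 0 were called between the strains in the mean of the stages, 1 was higher in beta-catSD, 1 was higher and 1 lower in beta-catSO, and 0 were called between stages in either strain. The shares over all genes are those given above for these comparisons. Within stages, beta-catSO had 1 higher and 1 lower at E12.5, with 15 of 20 values above 0, and 1 higher and 3 lower at E13.5, with 17 of 20 below 0. The effect differed between the stages for 1 of the 20. At E13.5 it was 4 of 20, where 15.4% of all genes were called. Trim28 was at 0.06 ± 0.04 between the strains (adjusted p = 0.463), -0.11 ± 0.04 in beta-catSD (0.123) and 0.00 ± 0.04 in beta-catSO (0.990). Setdb1 was at 0.06 ± 0.06, -0.10 ± 0.06 and 0.01 ± 0.06. Trim24, a relative of Trim28, rose in beta-catSD by 0.18 ± 0.05 (adjusted p = 0.0391) and fell in beta-catSO by 0.30 ± 0.05 (0.000171). Pphln1, a part of the HUSH silencing complex, rose in beta-catSO by 0.31 ± 0.06 (0.000332). Of the 11 measured developmental Zfp genes, Zfp503 alone was called in beta-catSD and Zfp503 and Zfp703 in beta-catSO. Zfp57 (0.07 ± 0.09 in beta-catSD and -0.14 ± 0.09 in beta-catSO), Zfp445 (0.08 ± 0.08 and 0.01 ± 0.08), Zfp568, a repressor of a placental Igf2 transcript (0.01 ± 0.08 and -0.16 ± 0.08), and Zfp809, which silences retroviral DNA (0.02 ± 0.16 and -0.12 ± 0.16), were not called. The same holds for Zfp281 (-0.00 ± 0.07 and 0.17 ± 0.07), Zfp148 (0.03 ± 0.07 and -0.03 ± 0.07), Zfp423 (0.16 ± 0.07 and 0.11 ± 0.07) and Zfp36 (0.59 ± 0.20 and -0.02 ± 0.20).

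Other zinc finger families are given by their counts and, for the stages, by their median changes. No test compared them with the numbered Zfp genes. Of 39 Zbtb genes 0 were called between the strains, 0 in beta-catSD and 3 in beta-catSO (1 higher, 2 lower). Of 20 Zscan and Zkscan genes 1 was lower in C57BL/6, 0 were called in beta-catSD and 1 was lower in beta-catSO. Of 28 Zfp genes with a letter after the number 1 was higher in C57BL/6 (3.57%), 0 were called in beta-catSD and 1 was lower in beta-catSO, with 3 lower at E13.5 (10.7%). All genes were called at 4.46% between the strains, 7.17% in beta-catSD, 18.5% in beta-catSO and 15.4% in beta-catSO at E13.5. From E12.5 to E13.5 the median change of Zbtb genes was -0.11 in C57BL/6 and -0.05 in CD1 wild-type. It was -0.18 and -0.17 for Zscan and Zkscan genes, and -0.13 and -0.07 for Zfp genes with a letter.

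The spread between libraries of a group was compared as a description only, over the 312 members with a mean above a log2 CPM of 1. The within-group standard deviation, pooled over the 4 groups of a strain, was larger in CD1 for 57.4% of members and for 51.0% of all genes. For KRAB-like members it was larger in CD1 for 63.7%, with a median ratio of 1.14, and for the others for 48.0%, with a median ratio of 0.977. The ratio was highest for Zfp27 (4.01), Zfp747 (3.47), Zfp958 (2.82), Zfp60 (2.70) and Zfp626 (2.69). It was lowest for Zfp768 (0.259), Zfp773 (0.290), Zfp462 (0.355), Zfp953 (0.450) and Zfp398 (0.475). Zfp27 was 4.64 to 4.87 in the 12 C57BL/6 libraries and 4.41 to 5.16 in the 12 CD1 libraries.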

How the data were processed

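RNA of sorted stromal cells was sequenced in 24 libraries, 3 in each of 8 groups. The deposited table holds log2 CPM per gene and library, and the submitters' processing notes list HISAT2 and HTSeq, then limma, on build mm10, without versions. That build is the genome of C57BL/6J, so reads of both strains were counted on a C57BL/6 sequence. The sources used here do not state the strand, the annotation or any low-gene filter. Undoing the log2 scale with 0.5 added to each count gave whole reads (within 0.1) for 100% of the values, at 6.18 to 21.2 M reads per library, and within-group correlations were 0.927 to 0.978.

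The log2 values as deposited were fitted with limma 3.58.1 in R 4.3.3, with 1 mean per group, 16 residual degrees of freedom, moderated variances and Benjamini-Hochberg adjustment over 13803 genes. A filter (log2 CPM above 0 in 3 libraries) removed 0 genes. The fits were tested on simulated data. Read ratios are exact binomial 95% intervals and cover counting error only. Gene positions, KRAB-like scores, finger counts and near-identical stretches came from GENCODE M21 sequences on GRCm38 and BLAST 2.17.0.

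The set and the lists were chosen with earlier results of these data known. Named genes were those called with the largest changes whose groups did not overlap (strain, genotype, stage), the strongest calls of each interaction, listed developmental and co-repressor genes, and the extremes of level and spread. Other genes were named after their values were seen. The deposited names do not let reads of near-identical copies be divided with certainty. Replicate numbers name libraries only. Alternatives were 2 added to each count, a filter at log2 CPM 1, no filter, voom weights, median-of-ratios size factors, only the groups compared, a replicate block, marker means as covariates, and leaving out libraries.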

Additional observations from a re-analysis of the deposited data

Results flagged for a closer look

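For 2 members the beta-catSO effect differed between the stages by limma's test of the difference of differences. For Zfp934 the effect was 0.81 ± 0.28 at E12.5 (adjusted p = 0.0854) and -1.01 ± 0.28 at E13.5 (0.0165), a difference of -1.82 ± 0.40 (0.0253). Its log2 CPM was 2.84, 2.84 and 2.82 in CD1 wild-type and 3.27, 4.21 and 3.43 in beta-catSO at E12.5, and 2.66, 3.79 and 3.30 against 2.30, 2.33 and 2.09 at E13.5. The groups were apart in opposite directions. It has near-identical stretches in 3 genes. For Zfp51 the effect was 0.27 ± 0.18 (0.427) and -0.76 ± 0.18 (0.00473), a difference of -1.04 ± 0.26 (0.0464). Its values were 3.12, 3.20 and 3.33 in wild-type and 3.41, 3.44 and 3.62 in beta-catSO at E12.5, and 3.50, 3.54 and 3.30 against 2.70, 2.48 and 2.86 at E13.5. The call of Zfp51 ended without any of 10 of the 12 CD1 libraries (adjusted p up to 0.109) and with the marker means (0.148). That of Zfp934 ended without any of 7 of them (up to 0.0895) and with the marker means (0.136).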

How the results depend on the processing

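Counts of called members moved by over 1.5 times under 5 of the 9 alternatives that leave no single library out. With the marker means as covariates the counts were 0 (strain, E12.5), 1 (strain, E13.5), 0 (strain, mean), 0 and 0 (beta-catSD, E12.5 and E13.5), 2 (beta-catSD, mean), 3 (beta-catSO, E12.5), 13 (beta-catSO, E13.5), 13 (beta-catSO, mean), 0 (beta-catSO between stages), 12 (difference of effects), 10 (mutant libraries) and 1 (stage, C57BL/6). The mutant libraries then had 3 higher and 7 lower. With only the groups compared they were 0 (strain, E12.5), 0 (beta-catSD, E12.5), 8 (beta-catSO, E13.5), 4 (stage, C57BL/6) and 2 (stage, CD1). With voom weights they were 8 (strain, mean), 0 (beta-catSD, E13.5) and 5 (beta-catSO, E12.5). Without the 2 libraries highest in Alb they were 3, 1 and 8 (strain, E12.5, E13.5 and mean), 0 (beta-catSD, E12.5), 1 (beta-catSO between stages) and 3 (stage, CD1). With the replicate block, where the numbers only name libraries and the correlation of same-numbered libraries did not pair them, they were 1 (beta-catSO between stages) and 13 (stage, C57BL/6); the groups with the best match of own numbers were beta-catSD and wild-type at E12.5 (6 of 6) and the others reached 0 to 4 of 6. The cause of these shifts was not tested. The added 2 counts, both filters and the size factors moved no count so far. Leaving out 1 library gave 0 to 3 (strain, E12.5), 0 to 1 (strain, E13.5), 3 to 7 (strain, mean), 0 to 1 (beta-catSD, E12.5), 0 to 4 (E13.5), 3 to 7 (mean), 3 to 7 (beta-catSO, E12.5), 15 to 24 (E13.5), 22 to 31 (mean), 0 to 3 (between stages), 19 to 28 (difference of effects), 49 to 60 (mutant libraries), 0 to 12 (stage, C57BL/6) and 2 to 9 (stage, CD1). Of 1608 values of named members under alternatives, 152 lost their call, 7 gained one and 0 changed sign with a call.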
